A study of Mus musculus with 22 samples.

Results

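The genes described here make, cut and load the peptides that MHC class I molecules show at the cell surface. They are 10 genes of the 43430 to which the deposited transcripts belong, chosen by name: H2-K1, H2-D1, B2m, Tap1, Tap2, Tapbp, Psmb8, Psmb9, Psmb10 and Nlrc5. They were followed in 22 RNA-seq libraries of ZsGreen-positive muscle stem cells sorted from the hindlimbs of Pax7-zsgreen mice. Muscle was taken without injury (3 libraries labelled ZT16 and 3 labelled ZT4), at day 1 after cardiotoxin (4 and 4) or at day 3 after it (4 and 4). Cardiotoxin is a snake venom protein that destroys myofibers and sets off regeneration, and ZT counts hours from lights on. The treatment protocol ties ZT4 and ZT16 to the injury. Uninjured libraries carry a ZT in their titles alone, and what it marks for them is not stated, nor is any hour of collection. All groups share the Pax7-zsgreen genotype and the fixation: mice were perfused with cold saline and then a mild paraformaldehyde fixative, which was quenched with glycine, before sorting and RNA extraction with a kit for fixed tissue. The reporter ZsGreen is the 1 sorting criterion the labels name. Nothing states that replicates are separate mice, so p-values measure the spread between libraries, which may be technical.

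MHC class I molecules pair a heavy chain with beta-2-microglobulin and hold a short peptide for CD8 T cells and natural killer cells to inspect. The peptides come from the proteasome, enter the endoplasmic reticulum through the TAP transporter and are loaded with the help of tapasin. Interferon signalling is known to raise most of these genes, to swap immunoproteasome subunits into the proteasome, and to raise NLRC5, the transactivator of class I genes.

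Library totals ranged from 5965957 to 9751536 estimated counts, and 15777 to 22992 genes were detected per library. Both lowest values were those of uninjured ZT4 library 3. Its correlations with the other libraries of its group (r = 0.912 and 0.924) were the lowest within any group. Most genes were detected in day 3 ZT4 libraries 1 and 2 (22992 and 20578) and day 3 ZT16 library 4 (20194), against at most 18720 in any other library. Pax7, which marks muscle stem cells, had a median of 324 CPM in uninjured libraries, 56.8 CPM at day 1 and 22.1 CPM at day 3 (CPM, counts per library size scaled by TMM). The 8 muscle stem cell markers, Pax7 among them, summed to 4311 to 5580, 2408 to 3177 and 1726 to 2017 CPM in the same order. Of the 8, 6 fell and none rose at day 1, and 7 fell and 1 rose at day 3, against uninjured. Among all genes tested 40.6% fell and 34.6% rose at day 1, and 39.1% and 37.9% at day 3. The 18 macrophage markers summed to 19.0 to 114.5 CPM in uninjured libraries, 1519 to 4854 CPM at day 1 and 329.6 to 1137 CPM at day 3, and all 18 rose at both days against uninjured. Ms4a7 was at 0 in every uninjured library, and none of the 18 was at 0 throughout a day. Neutrophil markers (6 genes) summed to 0 to 3.71, 29.2 to 308 and 6.40 to 16.4 CPM in the same order, and T and NK cell markers (10 genes) to at most 3.45 CPM in any library. Uninjured ZT16 libraries 1 and 3 stood apart from the other uninjured libraries in the gene Irf1. Irf1, an interferon-induced transcription factor, had 550.5 and 285 CPM in them and 36.4 CPM in uninjured ZT16 library 2, against 39.4, 55.2 and 36.2 CPM in the 3 uninjured ZT4 libraries. Where leaving out both libraries changed a call or a direction of a gene named below, that value is given; the fit then has 1 uninjured ZT16 library, which is assumed to vary like the other groups. It was extended beyond the 10 genes after values were seen.

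RefSeq promoter windows on GRCm38.p6, each 300 bases long (250 before the start and 50 after it), matched 8 of the 10 genes, and Tap2 and Nlrc5 were not among them. The windows of H2-K1, H2-D1 and B2m share a short layout that is known from class I promoters as the X2 site and the Y box of the SXY module. In this layout TGACG is followed on the same strand by ATTGG, with 20 bases between them. The stretches are shown because these genes, which encode heavy chains and the light chain that each of them pairs with, have this layout in common. Capitals mark TGACG and ATTGG.

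H2-K1: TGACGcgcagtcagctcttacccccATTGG

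H2-D1: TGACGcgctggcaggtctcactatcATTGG

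B2m: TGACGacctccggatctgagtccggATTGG

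A pair with 18 to 22 bases between, a spacing set after these windows were seen, was in 88 of all 32851 RefSeq windows (0.268%). Of the windows of the other 5 genes (Tap1, Tapbp, Psmb8, Psmb9 and Psmb10), none held the pair. Upstream of it, the same windows of H2-K1, H2-D1 and B2m held an NF-kB consensus, which was in 4.51% of all windows, and an IRF core, AANNGAAA on either strand, which was in 23.9%. Single matches were common: TGACG was in 20.8% of windows and ATTGG in 37.4%, both strands counted. The 200 bases before the annotated start are given for the 3 genes, with the NF-kB consensus, the IRF core and the TGACG and ATTGG pair in capitals. H2-K1 has 2 RefSeq starts, and the outer one was used (chr17:34000348-34000547, minus strand). The H2-D1 stretch is chr17:35262894-35263093 and that of B2m is chr2:122147487-122147686, both on the plus strand.

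H2-K1: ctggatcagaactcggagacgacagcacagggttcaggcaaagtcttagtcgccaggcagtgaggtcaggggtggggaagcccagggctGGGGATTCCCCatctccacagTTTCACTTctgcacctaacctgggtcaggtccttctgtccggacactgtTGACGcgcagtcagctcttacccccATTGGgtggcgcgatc

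H2-D1: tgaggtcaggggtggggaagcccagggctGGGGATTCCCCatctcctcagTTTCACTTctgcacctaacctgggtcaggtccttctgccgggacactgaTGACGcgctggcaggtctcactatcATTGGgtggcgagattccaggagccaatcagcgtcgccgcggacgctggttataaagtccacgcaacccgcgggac

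B2m: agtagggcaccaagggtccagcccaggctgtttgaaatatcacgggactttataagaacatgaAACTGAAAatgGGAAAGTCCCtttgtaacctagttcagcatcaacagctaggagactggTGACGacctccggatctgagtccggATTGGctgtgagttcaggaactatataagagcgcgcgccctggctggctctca

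A match is a run of letters and not a shown binding site. A gamma-interferon activated sequence, TTCNNNGAA, was in the Psmb8 window among the 8 genes and in 8.3% of all windows, and the Psmb10 window held none of the motifs searched.

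**Figure D1:**
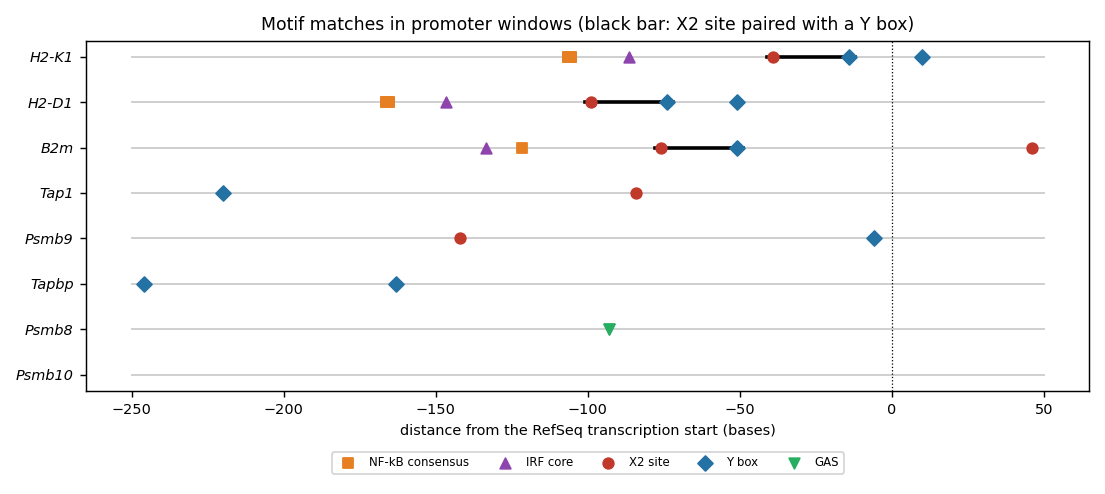
Motif matches in the RefSeq promoter windows of 8 class I pathway genes, by distance in bases from the annotated start (x axis). Each symbol is a match on either strand; a black bar joins a TGACG and ATTGG pair, which H2-K1, H2-D1 and B2m hold and the other 5 genes shown do not.

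Injury was compared with no injury to see how the pathway is expressed in early muscle repair. At day 3, class I heavy chains, B2m, both TAP genes, tapasin and 2 of 3 immunoproteasome genes were lower than in uninjured muscle, and Psmb10 was higher. Against uninjured libraries 8 of the 10 genes fell, 1 rose and 1 (Nlrc5) did not pass the test, at a median log2 fold change of −0.89, against −0.03 over all 15084 genes tested. Among all genes tested 39.1% fell and 37.9% rose in that comparison, so a call by itself is common here. At day 1, 6 of the 10 fell, none rose and 4 did not pass, at a median of −0.37, against −0.12 over all genes, of which 40.6% fell and 34.6% rose. Between the days, 5 of the 10 were lower at day 3 than at day 1, 1 was higher and 4 did not pass, at a median of −0.53, against −0.02 over all genes, of which 28.7% fell and 26.7% rose. All 10 genes passed the filter on low counts. Where library ranges are said not to overlap below, the share of all genes with such ranges was not counted. A call is an adjusted p under 0.05 in edgeR's quasi-likelihood test with Benjamini-Hochberg adjustment over all genes tested. In bulk RNA, fewer cells of a type and less RNA per cell cannot be told apart.

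H2-K1 encodes a classical heavy chain and lies on chromosome 17, 33996017 to 34000347 (GRCm38, minus strand). Its lowest, median and highest levels were 182.5, 309.5 and 462 CPM in uninjured libraries, 185, 226 and 248 CPM at day 1 and 59.2, 74.9 and 88.9 CPM at day 3. Every day 3 library was below every day 1 and every uninjured library, and the day 1 and uninjured ranges overlapped. The log2 fold change was −2.07 ± 0.14 (SE) for day 3 against uninjured (edgeR adjusted p = 1.6e-11). For day 3 against day 1 it was −1.58 ± 0.13 (edgeR adjusted p = 2.2e-09). For day 1 against uninjured it was −0.49 ± 0.14 (edgeR adjusted p = 0.00314), and that call was lost without uninjured ZT16 libraries 1 and 3 (−0.11 ± 0.16, adjusted p = 0.563) and in ZT4 libraries alone (−0.22 ± 0.20, adjusted p = 0.338).

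H2-D1, the other classical heavy chain gene (chromosome 17, 35262730 to 35267499, plus strand), had 608, 739.5 and 875 CPM as lowest, median and highest in uninjured libraries, 479.9, 625.5 and 788 CPM at day 1 and 325, 356 and 438 CPM at day 3. Again no day 3 library reached the range of the other states. H2-D1 was lower at day 3 by a log2 of −1.005 ± 0.10 against uninjured (edgeR adjusted p = 2.89e-09) and −0.75 ± 0.10 against day 1 (edgeR adjusted p = 3.82e-07). Its day 1 value, −0.25 ± 0.10 (edgeR adjusted p = 0.028), passed narrowly and was lost under 17 of 26 other settings, with adjusted p up to 0.715. Among them are the fits without any 1 of day 1 ZT4 libraries 1, 2 and 4, day 1 ZT16 libraries 2 and 3, uninjured ZT4 libraries 1 and 3 and uninjured ZT16 libraries 2 and 3, which gave −0.24 to −0.11. Without uninjured ZT16 libraries 1 and 3 together the value was −0.21. The call was also lost under DESeq2 (−0.19, adjusted p = 0.115), limma voom (−0.23, adjusted p = 0.0577) and DESeq2 size factors in edgeR (−0.19, adjusted p = 0.104). The same held with effective length offsets (−0.22, adjusted p = 0.053), no filter on low counts (−0.14, adjusted p = 0.257), groups compared alone (−0.16, adjusted p = 0.187) and ZT4 libraries alone (−0.06).

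Class I heavy chain genes are near-identical in sequence, and the counts split shared reads among them by estimate. Summed over the 30 annotated heavy chain rows, which takes out that split, the level was lower by −0.36 ± 0.10 at day 1 (edgeR adjusted p = 0.0032) and by −1.31 ± 0.10 at day 3 (edgeR adjusted p = 2.77e-11) against uninjured, as log2 fold changes. H2-K1 and H2-D1 made up 85.3% to 92.3% of this sum in each library.

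B2m encodes the light chain that every classical heavy chain needs (chromosome 2, 122147686 to 122153083, plus strand). It had 106, 139.8 and 217 CPM as lowest, median and highest in uninjured libraries, 97.2, 148 and 194 CPM at day 1 and 83.6, 96.7 and 146 CPM at day 3, and all 3 ranges overlapped. B2m fell at day 3 by −0.48 ± 0.16 against uninjured (log2, edgeR adjusted p = 0.00829) and by −0.50 ± 0.15 against day 1 (edgeR adjusted p = 0.00606). The day 3 call against uninjured was lost without uninjured ZT4 library 3 (−0.33, adjusted p = 0.0645), without uninjured ZT16 library 2 (−0.24, adjusted p = 0.17) and in ZT16 libraries alone (−0.14, adjusted p = 0.593). In ZT16 libraries alone the day 3 value against day 1 was −0.26 (adjusted p = 0.333). At day 1 the value against uninjured was 0.02 ± 0.16 (edgeR adjusted p = 0.916).

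Per length, the heavy chains and B2m were the most abundant of the 10 genes in every state. H2-D1 averaged 646 ± 129.8 TPM in uninjured libraries, 489 ± 57.1 TPM at day 1 and 282 ± 42.5 TPM at day 3 (SD, n = 6, 8 and 8; TPM, abundance per transcript length). H2-K1 came second in uninjured libraries, at 325 ± 120.8 TPM, with a range that overlapped that of B2m (292 ± 70.8 TPM). At day 1 the second place went to B2m, at 287 ± 51.4 TPM against 211 ± 18.3 TPM for H2-K1, with overlapping ranges. At day 3 B2m had 195 ± 26.8 TPM and H2-K1 71.9 ± 10.7 TPM, with no overlap. Tapbp averaged 98.6, 61.8 and 51.0 TPM in the same order of states, and Nlrc5 was lowest throughout, at 0.39, 0.66 and 0.46 TPM.

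**Figure D2:**
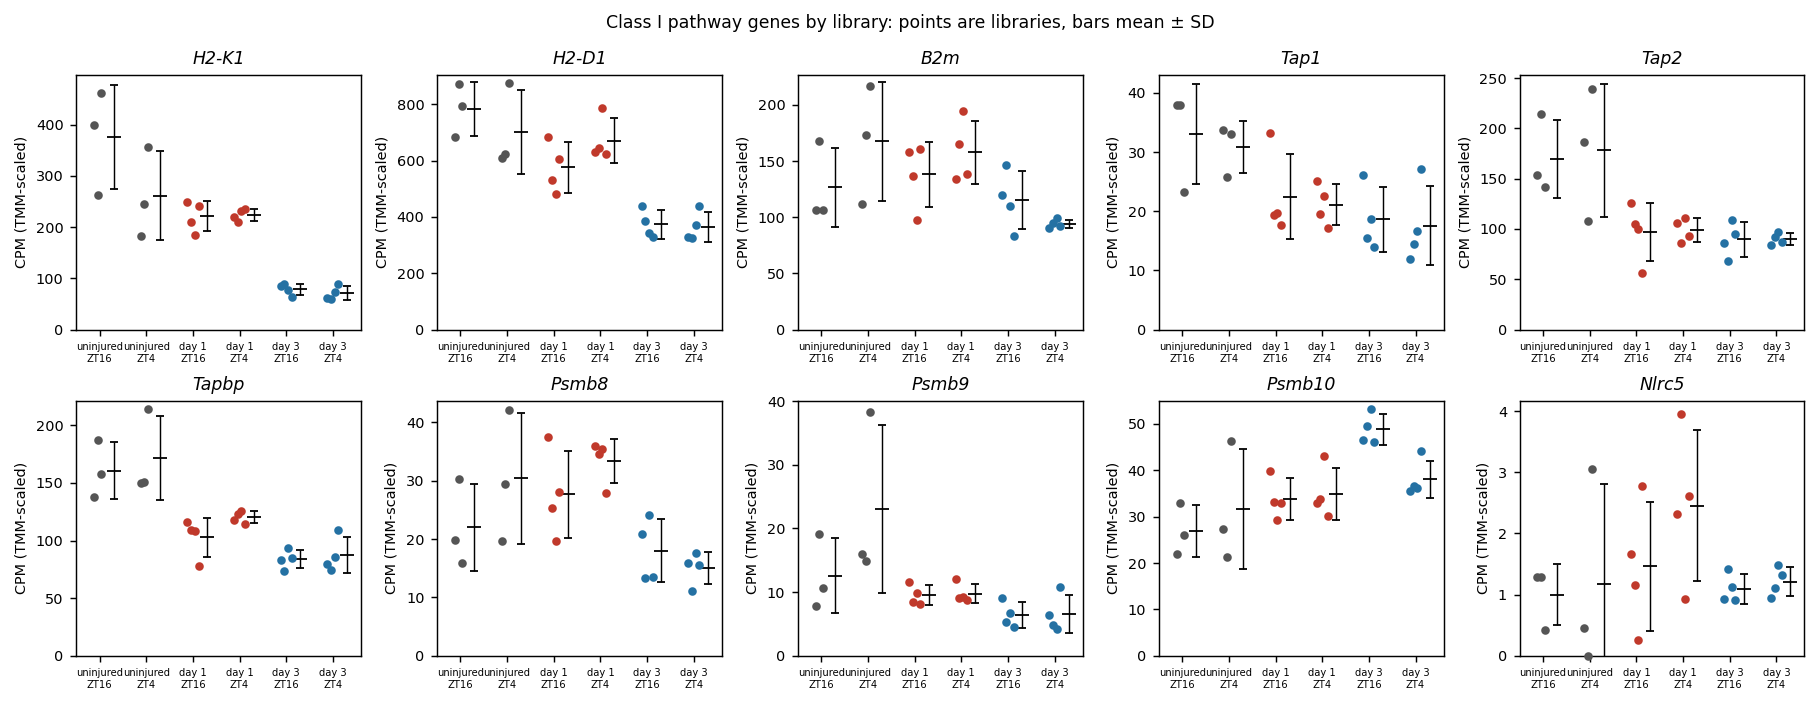
Levels of the 10 class I pathway genes in CPM (y axes, TMM-scaled) in each library of the 6 groups; points are libraries, and bars show mean ± SD of 3 or 4. For H2-K1 and H2-D1 all 8 day 3 points lie below all 14 others. For Psmb10 the 4 day 3 ZT16 points lie above the 4 day 3 ZT4 points, a difference that did not pass the test.

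Tap1, Tap2 and Tapbp were lower than in uninjured libraries at both days. Tap1 and Tap2 encode the subunits of the TAP transporter and lie side by side on chromosome 17 (34187553 to 34197225 and 34203527 to 34216321, plus strand). Tap1 had 23.3, 33.3 and 38.0 CPM as lowest, median and highest in uninjured libraries, 17.2, 19.6 and 33.2 CPM at day 1 and 11.9, 16.1 and 27.1 CPM at day 3. The ranges overlapped, with most injured libraries below the uninjured ones. Tap1 was lower by −0.55 ± 0.19 at day 1 (edgeR adjusted p = 0.0102) and −0.82 ± 0.19 at day 3 (edgeR adjusted p = 0.000375) against uninjured, in log2. Its day 1 call was lost without uninjured ZT4 library 1 (−0.41, adjusted p = 0.0752), without uninjured ZT16 library 2 (−0.39, adjusted p = 0.0903), within each time (−0.56 in ZT16 and −0.55 in ZT4 libraries) and with effective length offsets (−0.34, adjusted p = 0.0936).

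Tap2 had 108, 170.2 and 239 CPM as lowest, median and highest in uninjured libraries, 56.5, 102 and 125.5 CPM at day 1 and 67.8, 89.8 and 109 CPM at day 3. Both injured states sat low, and their ranges touched only the lowest uninjured library. Tap2 fell by −0.83 ± 0.17 at day 1 (edgeR adjusted p = 0.000193) and −0.95 ± 0.17 at day 3 (edgeR adjusted p = 3.98e-05), and these calls held under all 26 other settings. Tap2-202, annotated as a retained-intron transcript, made up 69.4% to 82.6% of Tap2 in every library by the deposited percentages, and with protein-coding transcripts alone Tap2 fell by −0.68 ± 0.17 at day 1 and −0.67 ± 0.17 at day 3.

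Tapbp encodes tapasin, which bridges TAP and empty class I molecules (chromosome 17, 33915899 to 33929292, plus strand). It had 138, 154 and 214 CPM as lowest, median and highest in uninjured libraries, 77.8, 115 and 126 CPM at day 1 and 74.0, 84.1 and 109 CPM at day 3. Every injured library was below every uninjured one. Tapbp was lower by −0.58 ± 0.10 at day 1 (edgeR adjusted p = 2.43e-05), by −0.95 ± 0.10 at day 3 (edgeR adjusted p = 1.09e-08) and by −0.38 ± 0.10 at day 3 against day 1 (edgeR adjusted p = 0.00234), in log2. The first 2 calls held under all 26 other settings, and the last was lost in ZT16 libraries alone (−0.29, adjusted p = 0.0994). Neither Tap gene passed the test between day 3 and day 1 (Tap1 −0.26 ± 0.18, Tap2 −0.12 ± 0.16).

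A further 7 genes were listed with the loading step, among them general chaperones of the endoplasmic reticulum such as Hspa5, which are not particular to class I. Of these 7 genes, 5 rose and 2 fell at both days against uninjured, in a median log2 of 0.93 at day 1 and 1.09 at day 3. Among all genes 34.6% rose and 40.6% fell at day 1, and 37.9% and 39.1% at day 3. Rises were seen for Calr (calreticulin, 1.67 ± 0.09 at day 1 and 1.53 ± 0.08 at day 3), Canx (calnexin, 1.01 ± 0.08 and 1.15 ± 0.08), Pdia3 (0.93 ± 0.08 and 1.09 ± 0.08), Hspa5 and Uggt1. The 2 lower genes were Erap1, the aminopeptidase that trims peptides (−0.28 ± 0.12 and −0.91 ± 0.12), and Tapbpl, a tapasin-related peptide editor (−0.92 ± 0.13 and −0.78 ± 0.13). Without uninjured ZT16 libraries 1 and 3 the day 1 value of Erap1 was −0.01 ± 0.15 (edgeR adjusted p = 0.992), and Hspa5, a chaperone of the endoplasmic reticulum, rose by 2.03 ± 0.10 at day 1 and 1.84 ± 0.10 at day 3, against 1.35 and 1.22 with them.

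**Figure D3:**
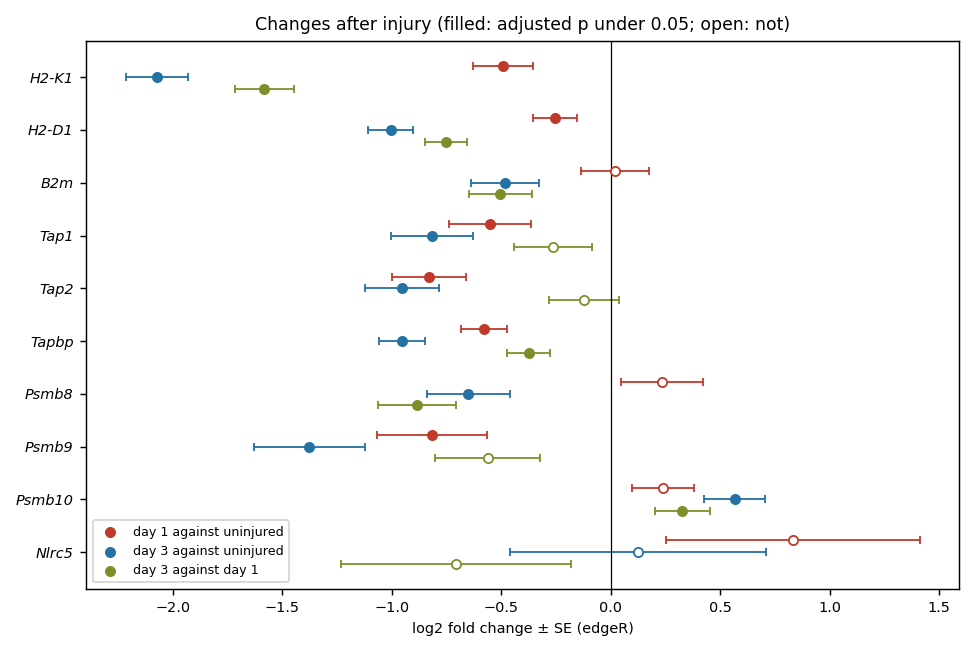
Log2 fold changes ± SE (x axis) of the 10 genes in the 3 comparisons between states from 1 edgeR fit of 22 libraries; filled points passed an adjusted p of 0.05 and open points did not. Values lie left of 0 for 8 genes at day 3 against uninjured, from −2.07 for H2-K1 to −0.48 for B2m, and right of it for Psmb10 and Nlrc5.

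The 3 immunoproteasome genes did not move together. Psmb9 encodes the subunit that replaces the product of Psmb6 (chromosome 17, 34181987 to 34187764, minus strand). It had 7.88, 15.4 and 38.3 CPM as lowest, median and highest in uninjured libraries, 8.17, 9.16 and 12 CPM at day 1 and 4.16, 5.88 and 10.8 CPM at day 3. The ranges overlapped, and uninjured ZT4 library 3 was the highest of all. Psmb9 was lower by −0.82 ± 0.25 at day 1 (edgeR adjusted p = 0.00515) and −1.38 ± 0.25 at day 3 (edgeR adjusted p = 2.89e-05). For day 3 against day 1 the value was −0.56 ± 0.24 (edgeR adjusted p = 0.0515), just short of a call. It passed under DESeq2 (−0.57, adjusted p = 0.0451), limma voom (−0.66, adjusted p = 0.0062), with no filter on low counts and with the groups compared alone (−0.55 each), and without day 1 ZT16 library 4 (−0.59), day 3 ZT4 library 4 (−0.72) or day 3 ZT16 library 1 (−0.68). The day 1 call was lost without uninjured ZT4 library 3 (−0.51, adjusted p = 0.0525), without uninjured ZT16 library 2 (−0.49, adjusted p = 0.0888), in ZT16 libraries alone (−0.40, adjusted p = 0.33) and with effective length offsets (−0.60, adjusted p = 0.0549). Tap1 and Psmb9 overlap by 212 bases on opposite strands, and the library kit does not mark strand, so reads there cannot be told apart. Annotated genes on the opposite strand also lie over B2m (Patl2, at most 0.157 CPM), Tap2 (Gm15821, 1.58 to 8.65 CPM), Tap2 and Psmb8 (Gm20496, 0.118 to 2.48 CPM), Psmb10 (Gm16156, 0.933 to 3.49 CPM), Tapbp (Gm19412, 0.152 to 3.59 CPM) and Nlrc5 (9330175E14Rik, at most 0.955 CPM). On the same strand, Zbtb22 (7.2 to 20.5 CPM) overlaps Tapbp.

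Psmb8 encodes the subunit that replaces the product of Psmb5 (chromosome 17, 34197721 to 34201454, plus strand). It had 15.9, 24.7 and 42.1 CPM as lowest, median and highest in uninjured libraries, 19.7, 31.3 and 37.5 CPM at day 1 and 11.1, 15.7 and 24.2 CPM at day 3. At day 1 it did not pass the test (0.23 ± 0.19, edgeR adjusted p = 0.26), but it passed as higher without uninjured ZT16 library 2 (0.49, adjusted p = 0.0273) and with no filter on low counts (0.35, adjusted p = 0.049). At day 3 it was lower by −0.65 ± 0.19 against uninjured (edgeR adjusted p = 0.00327) and by −0.89 ± 0.18 against day 1 (edgeR adjusted p = 0.000154). The call against uninjured was lost without uninjured ZT16 library 2 (−0.38, adjusted p = 0.0798) and in ZT16 libraries alone (−0.29, adjusted p = 0.337), where the value against day 1 was −0.62 (adjusted p = 0.0505).

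Psmb10 encodes the subunit that replaces the product of Psmb7 (chromosome 8, 105935735 to 105938444, minus strand), and it was the 1 gene of the 10 that rose. It had 21.4, 26.6 and 46.3 CPM as lowest, median and highest in uninjured libraries, 29.2, 33.1 and 43.1 CPM at day 1 and 35.6, 45.0 and 53.3 CPM at day 3. The ranges overlapped because of uninjured ZT4 library 3; the other 5 uninjured libraries were below every day 3 library. Psmb10 was higher at day 3 by 0.57 ± 0.14 against uninjured (edgeR adjusted p = 0.000777) and 0.33 ± 0.13 against day 1 (edgeR adjusted p = 0.032). At day 1 the value was 0.24 ± 0.14 (edgeR adjusted p = 0.124). It passed as higher without uninjured ZT4 library 3 (0.44, adjusted p = 0.00213) or uninjured ZT16 library 2 (0.43, adjusted p = 0.0125), under limma voom (0.37, adjusted p = 0.0167), with no filter on low counts (0.36, adjusted p = 0.0175) and with effective length offsets (0.33, adjusted p = 0.0497). In ZT4 libraries alone neither day 3 call held (0.27, adjusted p = 0.221, and 0.12, adjusted p = 0.612). The call against day 1 was also lost without any 1 of day 1 ZT4 libraries 1 and 4, day 1 ZT16 library 3, day 3 ZT4 libraries 1 and 4 and day 3 ZT16 library 3 (0.29 to 0.32).

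Most genes of the standard subunits and proteasome caps rose. Of 8 such genes, 5 rose and none fell at day 1, and 7 rose and none fell at day 3. Among all genes 34.6% rose and 40.6% fell at day 1, and 37.9% and 39.1% at day 3. Psmb7 rose by 1.60 ± 0.09 and 1.69 ± 0.09, Psmb5 by 1.23 ± 0.07 and 1.43 ± 0.07, Psmb6 by 0.58 ± 0.07 and 1.04 ± 0.07 and the cap gene Psme3 by 1.54 ± 0.08 and 1.53 ± 0.08 (log2 at day 1 and at day 3). The interferon-induced cap gene Psme1 did not pass at day 3 (−0.10 ± 0.09, edgeR adjusted p = 0.306), and its partner Psme2 rose by 0.26 ± 0.08.

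As a share of each pair of interchangeable subunits, in TPM, all 3 immunoproteasome genes were lower after injury. Psmb9 made up 3.21% ± 1.49 of Psmb9 plus Psmb6 in uninjured libraries, 1.33% ± 0.36 at day 1 and 0.70% ± 0.28 at day 3 (SD, n = 6, 8 and 8). For Psmb8 with Psmb5 the shares were 16.2% ± 4.77, 8.44% ± 1.73 and 4.50% ± 1.19. For Psmb10 with Psmb7 they were 38.5% ± 7.18, 19.3% ± 2.86 and 21.7% ± 1.95, although the CPM of Psmb10 rose. Exact two-sided permutation tests over libraries gave adjusted p of 0.0012 to 0.0015 for 8 of 9 comparisons between states, adjusted over the 9. The exception was Psmb10 at day 3 against day 1 (exact permutation p = 0.0715). The smallest p that 8 libraries against 6 allow is 0.000666.

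**Figure D4:**
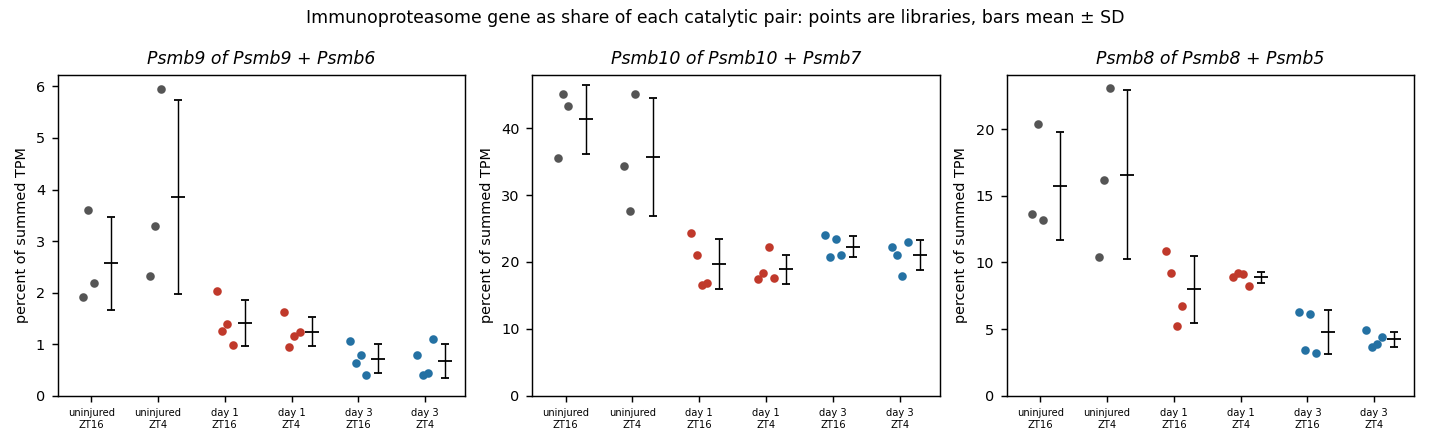
Share of summed TPM (y axes, percent) held by the immunoproteasome gene of each catalytic pair, by library, with mean ± SD per group of 3 or 4. Uninjured means lie highest in each panel, and Psmb9 averages 3.21% in uninjured libraries, 1.33% at day 1 and 0.70% at day 3.

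Nlrc5, the class I transactivator (chromosome 8, 94434356 to 94527272, plus strand), was barely detected. It had 0, 0.87 and 3.05 CPM as lowest, median and highest in uninjured libraries, 0.25, 1.99 and 3.94 CPM at day 1 and 0.91, 1.11 and 1.49 CPM at day 3, from 0 to 25 estimated counts per library. Its log2 fold changes were 0.83 ± 0.58 at day 1 and 0.13 ± 0.59 at day 3 against uninjured, with edgeR adjusted p of 0.196 and 0.851. Neither passed. The day 1 value was 1.93 (adjusted p = 0.00557) without uninjured ZT4 library 3 and 1.87 (adjusted p = 0.0216) under limma voom, and both passed.

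Among other regulators, the day 1 count turned on uninjured ZT16 libraries 1 and 3. Of 22 regulators and interferon signalling genes, 4 rose and 12 fell at day 1, and 4 rose and 14 fell at day 3, against uninjured, beside 34.6% of all genes rising and 40.6% falling at day 1 and 37.9% and 39.1% at day 3. Without those 2 libraries 8 rose and 6 fell at day 1, and 4 rose and 13 fell at day 3. The log2 fold changes of Irf1 were −0.38 at day 1 (edgeR adjusted p = 0.356) and −1.22 at day 3 (edgeR adjusted p = 0.00666) with the 2 libraries. Without them the values were 1.25 ± 0.22 and 0.34 ± 0.21. The 2 libraries were set apart by their high Irf1, so the direction of this shift was fixed by that choice. Ifngr1, the ligand-binding chain of the interferon gamma receptor, had 281 ± 35.9 CPM in uninjured libraries, 129 ± 17.7 CPM at day 1 and 64.9 ± 5.77 CPM at day 3, and its log2 fold changes against uninjured were −1.12 ± 0.09 and −2.12 ± 0.09. Rfx5, a subunit of the RFX complex that binds the X box, fell by −2.31 ± 0.17 at day 1 and −1.44 ± 0.16 at day 3. Lower at both days were also Irf2 (−1.51 ± 0.15 and −2.005 ± 0.15), Irf9 (−1.24 ± 0.18 and −2.07 ± 0.19), Stat2 (−1.53 ± 0.16 and −1.50 ± 0.16) and the NF-kB subunit gene Rela (−0.44 ± 0.07 and −0.97 ± 0.07), of which the day 1 call of Rela was lost without the 2 libraries (−0.18 ± 0.08, edgeR adjusted p = 0.0645). Ifngr2, the second receptor chain, rose by 0.72 ± 0.11 and 0.66 ± 0.11. Of the genes of NF-Y, the complex that binds the Y box, Nfyc rose at both days (0.28 ± 0.07, or 0.43 ± 0.09 without the 2 libraries, and 0.44 ± 0.07), Nfya rose at day 1 (1.135 ± 0.28, against 0.36 ± 0.28 at day 3, which did not pass) and Nfyb rose at day 3 (0.34 ± 0.09, against 0.06 ± 0.09 at day 1, which passed as 0.36 ± 0.11 without the 2 libraries). The interferon genes Ifng, Ifnb1, Ifnl2 and Ifnl3 were below the filter, at 0.785 CPM or less in every library.

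Among non-classical heavy chain genes more fell than rose. Of 16 such genes 12 passed the filter, and of those 7 fell and none rose at day 1, and 9 fell and none rose at day 3, against uninjured. Falls were common among all genes too, at 40.6% at day 1 and 39.1% at day 3, beside rises of 34.6% and 37.9%. Without uninjured ZT16 libraries 1 and 3, 6 fell and 1 rose at day 1 (H2-Q10, 1.61 ± 0.55), and 9 fell and none rose at day 3. H2-T23, which encodes Qa-1, the ligand of an inhibitory natural killer receptor, had 35.0 ± 9.19 CPM in uninjured libraries, 19.1 ± 5.79 CPM at day 1 and 10.8 ± 3.12 CPM at day 3 (log2 −0.87 ± 0.21 and −1.71 ± 0.21). H2-M3, which presents formylated peptides, fell by −0.92 ± 0.19 and −1.94 ± 0.20, H2-T22 by −0.63 ± 0.13 (−0.41 ± 0.16 without the 2 libraries) and −1.35 ± 0.13, and Hfe, an iron regulator of this fold, by −1.65 ± 0.17 and −1.98 ± 0.17. Cd1d1, which presents lipids, had 14 ± 3.45 CPM in uninjured libraries, 1.95 ± 1.18 CPM at day 1 and 18.1 ± 2.39 CPM at day 3, and its log2 fold changes were −2.82 ± 0.31 and 0.40 ± 0.28 against uninjured and 3.22 ± 0.30 for day 3 against day 1.

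MHC class II genes, which macrophages and other antigen-presenting cells express, rose at both days. Of 7 such genes 6 passed the filter, and 6 rose at day 1 and 5 at day 3 against uninjured, beside 34.6% and 37.9% of all genes. Cd74, the invariant chain, had 19.6 ± 9.78 CPM in uninjured libraries, 113 ± 35.1 CPM at day 1 and 103 ± 39.8 CPM at day 3 (log2 2.57 ± 0.33 and 2.42 ± 0.32), and H2-Aa had 4.61 ± 3.04, 29.5 ± 7.34 and 28.6 ± 12.4 CPM. All 18 macrophage markers rose at both days too. Between the days, 14 of the 18 were lower at day 3 than at day 1 (median log2 −1.73), against 2 of the 6 class II genes (median −0.16). Of all genes 28.7% were lower in that comparison. Endothelial markers (8 genes) summed to 112 to 202 CPM in uninjured libraries, 40.4 to 103 CPM at day 1 and 16.3 to 30.4 CPM at day 3, and none of them was at 0 throughout a state. At day 1, 1 of them rose (Emcn, 1.40 ± 0.62), 1 fell (Tek, −2.90 ± 0.13) and 6 did not pass, at a median of 0.37, and at day 3, 5 fell and none rose. Fibro-adipogenic markers (8 genes) summed to 2804 to 3802, 494 to 834 and 1996 to 4305 CPM, and mural markers (8 genes) to 394 to 1223, 338 to 398 and 252 to 439.8 CPM, in the same order. Of the fibro-adipogenic markers 1 rose and 5 fell at day 1 (median −0.89), and 5 rose and 2 fell at day 3 (median 1.46). Of the mural markers none rose and 6 fell at day 1, and 1 rose and 6 fell at day 3. Myofiber markers (10 genes) summed to 704 to 1812, 158 to 991 and 1161 to 2883 CPM. Of these none rose and 9 fell at day 1, and 5 rose and 3 fell at day 3. Dendritic cell markers (6 genes) summed to at most 18.5 CPM in any library and B cell markers (4 genes) to at most 4.55 CPM. Of the 2 dendritic markers tested, Itgax, at 0 in every uninjured library, rose at both days (6.04 ± 0.98 and 6.03 ± 0.98). Zbtb46 fell at day 3 (−0.71 ± 0.16). The counts of these marker lists stand beside 34.6% of all genes rising and 40.6% falling at day 1, and 37.9% and 39.1% at day 3. Leukocytes and endothelial cells are known to express class I genes too, and macrophage markers were highest at day 1. There H2-K1, H2-D1, Tap1, Tap2, Tapbp, Psmb9 and Psmb10 stood between their uninjured and day 3 means in CPM. Psmb8 (26.2 in uninjured libraries, 30.5 at day 1 and 16.5 at day 3), Nlrc5 (1.08, 1.96 and 1.15) and B2m (147, 147.9 and 104.5) had their highest mean CPM at day 1. The part of these cells in the levels of the 10 genes was not tested.

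H2-K1 transcripts differed between uninjured libraries. H2-K1-209 is annotated as a 2-exon transcript that keeps 3 introns of the main transcript. In uninjured ZT16 libraries 1, 2 and 3 it made up 56.9%, 23.4% and 56.8% of H2-K1 by the deposited percentages, against 14.9%, 9.22% and 6.64% in uninjured ZT4 libraries. Across day 1 libraries it was 9.57% to 20.8% and across day 3 libraries 8.11% to 16.9%. Its level was 239.7, 66.7 and 292.5 TPM in uninjured ZT16 libraries, against 28.8, 21.6 and 20.03 TPM in uninjured ZT4 libraries, so all 3 ZT16 libraries were above all 3 ZT4 libraries. This difference was not tested, and the share of all transcripts separated in this way was not counted. Libraries 1 and 3 were the same ones with high Irf1. H2-D1-204, a retained-intron transcript of H2-D1, had 83.9, 26.7 and 87.4 TPM in uninjured ZT16 libraries, against 20.5, 9.79 and 16.5 TPM in uninjured ZT4 libraries.

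Counting the protein-coding transcripts alone, an alternative chosen after these shares were seen, changed the H2-K1 result at day 1. The log2 fold change of day 1 against uninjured became 0.07 ± 0.15 (edgeR adjusted p = 0.699), against −0.49 with all transcripts. Day 3 against uninjured stayed lower, at −1.52 ± 0.15 (edgeR adjusted p = 1.27e-08). In TPM, the coding transcripts of H2-K1 averaged 162 ± 49.4 in uninjured libraries, 159 ± 17.6 at day 1 and 54.3 ± 8.96 at day 3 (SD, n = 6, 8 and 8). H2-D1 kept its value at day 1 with coding transcripts alone (−0.24 ± 0.10, edgeR adjusted p = 0.0382).

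**Figure D5:**
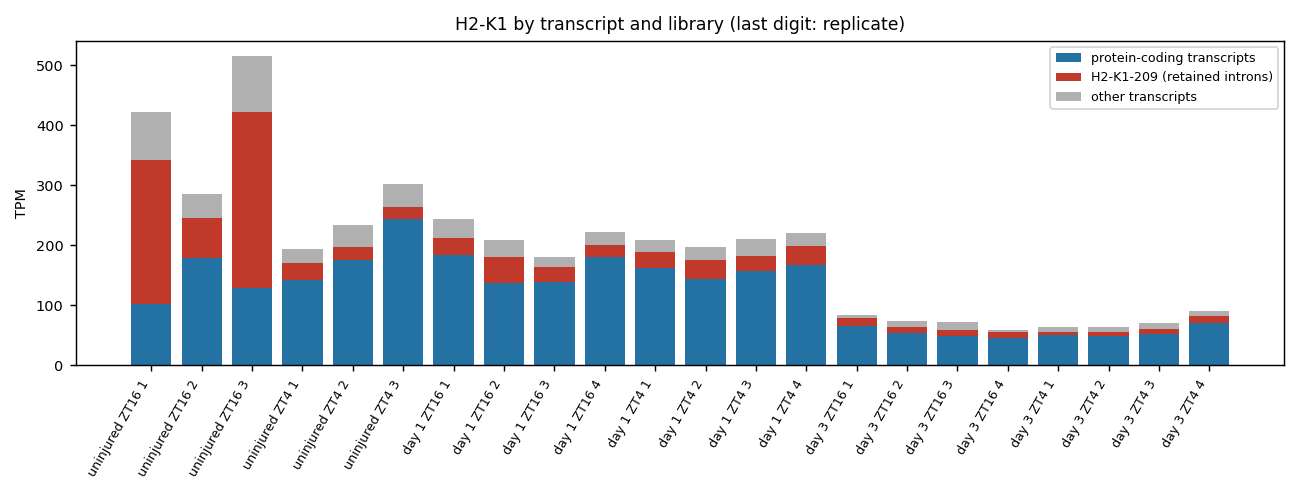
H2-K1 level in TPM (y axis) in each of the 22 libraries, stacked by transcript class: protein-coding transcripts, the retained-intron transcript H2-K1-209 and all other transcripts. H2-K1-209 reaches 239.7 and 292.5 TPM in uninjured ZT16 libraries 1 and 3 and at most 66.7 TPM elsewhere.

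ZT16 was compared with ZT4 within each state to see whether the pathway differs by the labelled time. In uninjured muscle, none of the 10 genes passed the test, where 8.53% of all genes tested rose at ZT16 and 9.12% fell (2663 genes called by edgeR, 3096 by DESeq2 and 1894 by limma voom). Unadjusted, 2 of the 10 had p under 0.05. H2-K1 had 400.1, 263 and 462 CPM in uninjured ZT16 libraries, against 182.5, 246 and 356 CPM in uninjured ZT4 libraries (log2 0.52 ± 0.21, edgeR adjusted p = 0.0929). Without ZT16 libraries 1 and 3 the value was −0.01 ± 0.27, and with protein-coding transcripts alone it was −0.65 ± 0.23 (adjusted p = 0.055). Without uninjured ZT16 library 2 (0.70, adjusted p = 0.0218) or ZT4 library 3 (0.80, adjusted p = 0.00999) H2-K1 passed the test with all transcripts counted.

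Psmb9 had 7.88, 19.1 and 10.6 CPM in uninjured ZT16 libraries, against 16.03, 14.8 and 38.3 CPM in uninjured ZT4 libraries (log2 −0.87 ± 0.38, edgeR adjusted p = 0.115). The ranges overlapped, and without ZT16 library 2 the value was −1.34 (adjusted p = 0.0269). Around these genes, 6 of the 8 standard proteasome and cap genes were lower at ZT16 in uninjured muscle, Psmb7 by −0.50 ± 0.13 and Psme2 by −0.44 ± 0.11 among them. Irf1 was higher by 2.73 ± 0.59 and Socs1, an inhibitor of interferon signalling, by 1.37 ± 0.32, in both cases with the high values in ZT16 libraries 1 and 3. As these libraries were set apart by Irf1, the direction in which its value moves without them was fixed by that choice. Without those libraries the values were −0.28 ± 0.36 for Irf1 (edgeR adjusted p = 0.797) and −0.14 ± 0.31 for Socs1 (edgeR adjusted p = 0.91), and none of the 8 proteasome and cap genes passed (Psmb7 −0.40 ± 0.18, Psme2 −0.42 ± 0.16).

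At day 1 after injury none of the 10 genes differed between ZT16 and ZT4, and by edgeR 0% of all genes passed (920 at an unadjusted p under 0.05; 27 genes by DESeq2 and 46 by limma voom). Of the 10 genes 9 had values below 0, at a median log2 of −0.12, none with an unadjusted p under 0.05. H2-D1 had 684.5, 532, 480 and 607 CPM at ZT16, against 629, 646.5, 788 and 622 CPM at ZT4 (−0.22 ± 0.13, edgeR adjusted p = 0.913). Macrophage markers leaned the same way, with 18 of 18 below 0 at ZT16 and sums of 1519 to 2958 CPM at ZT16, against 2834 to 4854 CPM at ZT4, and none passed the test. The lean was not particular to them. All 5 neutrophil markers tested (median log2 −1.53) and all 10 myofiber markers (median −1.01) were below 0 too. Of other lists, 7 of 8 mural, 5 of 8 endothelial and 2 of 8 fibro-adipogenic markers were above 0. The part of any of these cells in the values of the 10 genes was not tested.

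At day 3 again none of the 10 genes passed between ZT16 and ZT4, with 0% of all genes passing by edgeR (1003 at an unadjusted p under 0.05; 4 genes by DESeq2 and 0 by limma voom), and none of the 10 had an unadjusted p under 0.05. Psmb10 had 46.6, 49.5, 53.3 and 46.0 CPM at ZT16, against 35.6, 36.6, 36.1 and 44.1 CPM at ZT4, so the groups did not overlap. Its log2 fold change of 0.36 ± 0.18 did not pass (edgeR adjusted p = 0.775), and the share of all genes whose groups did not overlap was not counted.

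The difference of the time effects was tested directly. Between day 1 and uninjured muscle it passed for none of the 10 genes, against 7.46% of all genes, and between day 3 and uninjured muscle for none, against 12.8% (1125 and 1927 genes by edgeR, 1527 and 2407 by DESeq2, 737 and 1628 by limma voom). None of the 10 had an unadjusted p under 0.05 at day 1. At day 3 there were 2: B2m (0.69 ± 0.31, edgeR adjusted p = 0.158) and Psmb10 (0.58 ± 0.28, edgeR adjusted p = 0.175). B2m passed without uninjured ZT16 library 2 (0.97, adjusted p = 0.0389) or uninjured ZT4 library 1 (0.94, adjusted p = 0.0385), and Psmb10 without uninjured ZT4 library 2 (0.81, adjusted p = 0.0476).

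Among 9839 other genes with a mean of at least 10 CPM, those whose level over the 22 libraries was most like the mean z-score of the 10 genes were Ifnar2 (Pearson r = 0.89), Ctsa (0.886), Chmp2a (0.875), H2-T23 (0.874) and Npc2 (0.874). Ifnar2, a chain of the type I interferon receptor, had 74.2 ± 20.2 CPM in uninjured libraries, 60.9 ± 10.7 CPM at day 1 and 29.4 ± 5.05 CPM at day 3. For Nlrc5 alone the likest were Smndc1 (0.712), Ybx3 (0.678), Gemin4 (0.663), Sdr39u1 (0.649) and Pdf (0.646). Nlrc5 had 0 to 25 estimated counts per library, and these are the highest values among 9839 genes searched. How high such values would be for unrelated genes was not tested. Among the 10 themselves, H2-K1 and H2-D1 were correlated at 0.94. These are descriptions over libraries of 3 states and carry no test.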

How the data were processed

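RNA was measured in 22 libraries. Per the file headers, each deposited RSEM file gives an expected count, TPM and isoform percent (the share of its gene's output) for 103732 transcripts. The tools listed (mm10 genome; RSEM 1.3.3, STAR 2.5.2, Trimmomatic 0.33, DESeq2) come from the submitters' processing notes, without their roles. Per the labels, libraries were made with SMART-seq v4.

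The authors' expected counts were summed per gene, rounded and fitted with edgeR 4.0.16 in R 4.3.3. The fit used TMM scaling, robust quasi-likelihood dispersions and 1 mean for each of 6 groups. The filter (minimum count 10, total 15) kept 15084 genes and left out 28346. States were averaged over both times. SE is the absolute log2 fold change over the square root of F. DESeq2 1.42.0 and limma 3.58.1 (voom) were alternatives. The code was tested on simulated data. Shares and levels used the deposited TPM with Python 3.11.15. Gene names and positions are from GENCODE M21, and promoters from RefSeq.

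Named genes are the 10 members, up to 4 called genes of each companion list with the smallest p per comparison, and the 5 likest genes; Psme1, Tapbpl, Cd1d1 and others named beside a count of 5 or fewer, and marker genes, were named after their values were seen. The members and lists were chosen with earlier results of these data known.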

Additional observations from a re-analysis of the deposited data

Results flagged for a closer look

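In 5 of the 40 groups of 4 libraries examined, 1 library lay far from the others of its group by Dixon's criterion, where chance alone marks about 1 in 20 groups. Tap1 had 33.2 CPM in day 1 ZT16 library 1, against 17.7 to 19.7 CPM in the other 3. H2-D1 had 788 CPM in day 1 ZT4 library 3, against 622 to 646.5 CPM in the other 3, and this library also had the highest macrophage marker sum, 4854 CPM. Psmb8 had 27.8 CPM in day 1 ZT4 library 4, against 34.6 to 35.9 CPM. Psmb9 had 12 CPM in day 1 ZT4 library 1, against 8.68 to 9.17 CPM. Psmb10 had 44.1 CPM in day 3 ZT4 library 4, against 35.6 to 36.6 CPM. The groups of 3 uninjured libraries were not examined.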

How the results depend on the processing

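For day 3 against uninjured, the calls of H2-K1, H2-D1, Tap1, Tap2, Tapbp and Psmb9 held under all 26 other settings, and 252 of 260 values of the 10 genes kept their direction and side of the threshold. For day 1 against uninjured 215 of 260 did. The number of the 10 genes called there was 3 in ZT4 libraries alone, against 6 in the full fit. For day 3 against day 1 it was 3 in ZT16 libraries alone, against 6. In uninjured ZT16 against ZT4 it was 2 with no filter on low counts, 1 with limma voom and 0 to 2 when 1 library was left out, against 0. For the difference in time effect between day 3 and uninjured muscle it was 1 with no filter and 0 to 1 when 1 library was left out, against 0. Directions turned for B2m at day 1 against uninjured (−0.0579 without uninjured ZT16 libraries 1 and 3, −0.0846 in ZT4 libraries alone, −0.0373 to 0.254 with 1 library left out), for Nlrc5 at day 3 against uninjured (−0.142 to 1.25 with 1 library left out), for Tap2 at day 3 against day 1 with protein-coding transcripts alone (0.01), for H2-K1 at day 1 against uninjured with protein-coding transcripts alone (0.0677), and for H2-K1 in uninjured ZT16 against ZT4 (−0.0125 without ZT16 libraries 1 and 3, −0.65 with protein-coding transcripts alone). The cause was not tested. In 1 of the 26 settings the value of the heavy chain sum stood in for both H2-K1 and H2-D1, so it tested neither gene by itself. Counting protein-coding transcripts alone left the counts of B2m and Psmb10 as they were, since each has 1 annotated transcript. With a replicate block, 6, 9 and 6 of the 10 genes were called in the 3 comparisons between states, as without it. Of 51 pairs of libraries with the same number, 9 had correlated deviations over 0.1 and 4 under −0.1 (−0.171 to 0.337, median 0.021). The highest was between ZT16 library 1 of day 1 and that of day 3. Pairs with different numbers were not examined, so whether libraries of the same number pair was not settled. Estimated counts as low as 0 for Nlrc5 and 28 for Psmb9 limit what can be seen for those genes.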
